A study of Homo sapiens with 8 samples.

Results

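The genes described are 10 subunits of the integrins of epithelial cells, chosen by name: the alpha subunits ITGA2, ITGA3, ITGA5, ITGA6 and ITGAV and the beta subunits ITGB1, ITGB4, ITGB5, ITGB6 and ITGB8. All 10 were among the 33221 genes of the deposited table, and all 10 passed the filter on low counts that left 22727 genes for testing. RNA-seq was made from 8 libraries of prostate cancer cell lines, 2 in each of 4 groups. In the PC3 EphA2 KO group, cells of PC3, a line from a bone metastasis, had been given a lentivirus with Cas9 and a guide against EphA2, an ephrin receptor tyrosine kinase, 72 h earlier. The PC3 control group, of wild-type genotype in the labels, had received a CRISPR/Cas9 control lentivirus for the same 72 h. In the DU145 EphA2 OE group, cells of DU145, a line from a brain metastasis, carried a transfected EphA2 expression plasmid for 48 h, and the DU145 control group carried a control plasmid for 48 h. Both DU145 groups are labelled wild type, and no group is described as a selected clone, so cells without the guide's cut or the plasmid may be part of the altered groups. The names that the table gives its control columns are not repeated in the labels, and their assignment to PC3 and DU145 is a reading by convention.

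An integrin is a membrane receptor made of an alpha and a beta subunit, and the pair decides which matrix protein is bound. The beta subunit ITGB1 pairs with many alpha subunits: with ITGA2 it forms a collagen receptor, with ITGA3 or ITGA6 a laminin receptor, and with ITGA5 a fibronectin receptor. ITGB4 pairs with ITGA6 alone, in the laminin receptor of the hemidesmosome, while ITGB5, ITGB6 and ITGB8 pair with ITGAV, and the pairs with ITGB6 and ITGB8 are known for activating latent TGF-beta.

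Before the results, some measurements bear on the labels and libraries. Library totals were 57571919 to 60951530 counts. EPHA2 had 41.7 and 37.7 FPKM in PC3 EphA2 KO libraries, against 55.1 and 55.6 FPKM in PC3 control libraries, and 69.3 and 81.0 FPKM in DU145 EphA2 OE libraries, against 58.8 and 58.9 FPKM in DU145 control libraries (FPKM adjusts fragments for transcript length and sequencing depth, so levels of different genes can be compared). The targeted gene thus lay on the side of each label, by a log2 fold change of -0.46 ± 0.09 in the knockout and 0.31 ± 0.09 in the overexpression (SE; adjusted p = 0.415 and 0.458 in edgeR's quasi-likelihood test, 0.0150 and 0.224 in DESeq2). Epithelial marker mRNA was high in all libraries (summed FPKM of 6 markers 333.1 to 425.2), and the summed FPKM of fibroblast, endothelial and leukocyte markers was at most 0.722, 0.168 and 0.539. Of the basal epithelial markers, KRT5 was at 0 in the 4 libraries labelled PC3 and averaged 0.869 FPKM in DU145 EphA2 OE and 0.715 FPKM in DU145 control. KRT14 averaged 0.0348 FPKM in PC3 EphA2 KO, 0 in PC3 control, 1.38 FPKM in DU145 EphA2 OE and 1.42 FPKM in DU145 control. KRT15 did not separate the labels, with means of 0.911 FPKM in PC3 EphA2 KO, 1.09 FPKM in PC3 control, 0.996 FPKM in DU145 EphA2 OE and 0.829 FPKM in DU145 control. TP63 was at most 0.0296 FPKM in any library. PC3 is known to lack CTNNA1, the gene of alpha-catenin, yet CTNNA1 averaged 45.0 FPKM in the libraries labelled PC3 EphA2 KO and 38.8 FPKM in those labelled PC3 control, beside 38.9 FPKM in DU145 EphA2 OE and 44.5 FPKM in DU145 control. What underlies this was not tested, and PC3 and DU145 below name labels. The DU145 EphA2 OE replicates stood farther apart than others: 10.7% of genes with a mean of at least 10 CPM (counts scaled to a common library size) differed by over 1.5-fold between them, against 5.50% to 5.88% in the other groups.

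In these cells ITGB1 was the most abundant member and ITGB6 and ITGB8 were close to undetected, as the plot of FPKM by library shows. ITGB1 (chr10:32900318-33005792, minus strand, GRCh38) had 233.2 and 191.8 FPKM in PC3 EphA2 KO, 270.1 and 255.5 FPKM in PC3 control, 272.4 and 194.7 FPKM in DU145 EphA2 OE and 262.9 and 269.1 FPKM in DU145 control. Its mean over the 8 libraries exceeded that of 99.8% of all genes in the table. ITGA3 (chr17:50055968-50090480, plus strand) followed at 68.8 to 87.8 FPKM in the 8 libraries and stood apart from both neighbours in the order in every group. In both PC3 groups ITGA6, ITGA2, ITGA5, ITGAV, ITGB5 and ITGB4 came next in that order, each with libraries apart from the next. In DU145 EphA2 OE the order was ITGA5, ITGA6, ITGA2, ITGAV, ITGB5 and ITGB4, in which the libraries of ITGA2 overlapped those of ITGA5, ITGA6 and ITGAV. In DU145 control, ITGA6 and ITGA5 overlapped, and ITGA2 (mean 13.3 FPKM) ranked after ITGAV (mean 14.9 FPKM).

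At the bottom, ITGB6 (chr2:160099667-160200313, minus strand) and ITGB8 (chr7:20330702-20415754, plus strand) had 0.0231 to 0.135 FPKM and 0.0198 to 0.0620 FPKM. These levels rested on 10 to 57 counts of ITGB6 and 21 to 65 counts of ITGB8 per library, and their means exceeded those of 31.8% and 24.2% of genes. Outside the PC3 EphA2 KO group the libraries of both genes overlapped, so their order is not settled there. ITGAV (chr2:186590056-186680901, plus strand), the alpha subunit that both need, was present at 12.9 to 15.5 FPKM, and ITGB5 (chr3:124761948-124901418, minus strand), which pairs with ITGAV, at 10.8 to 12.9 FPKM.

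**Figure D1:**
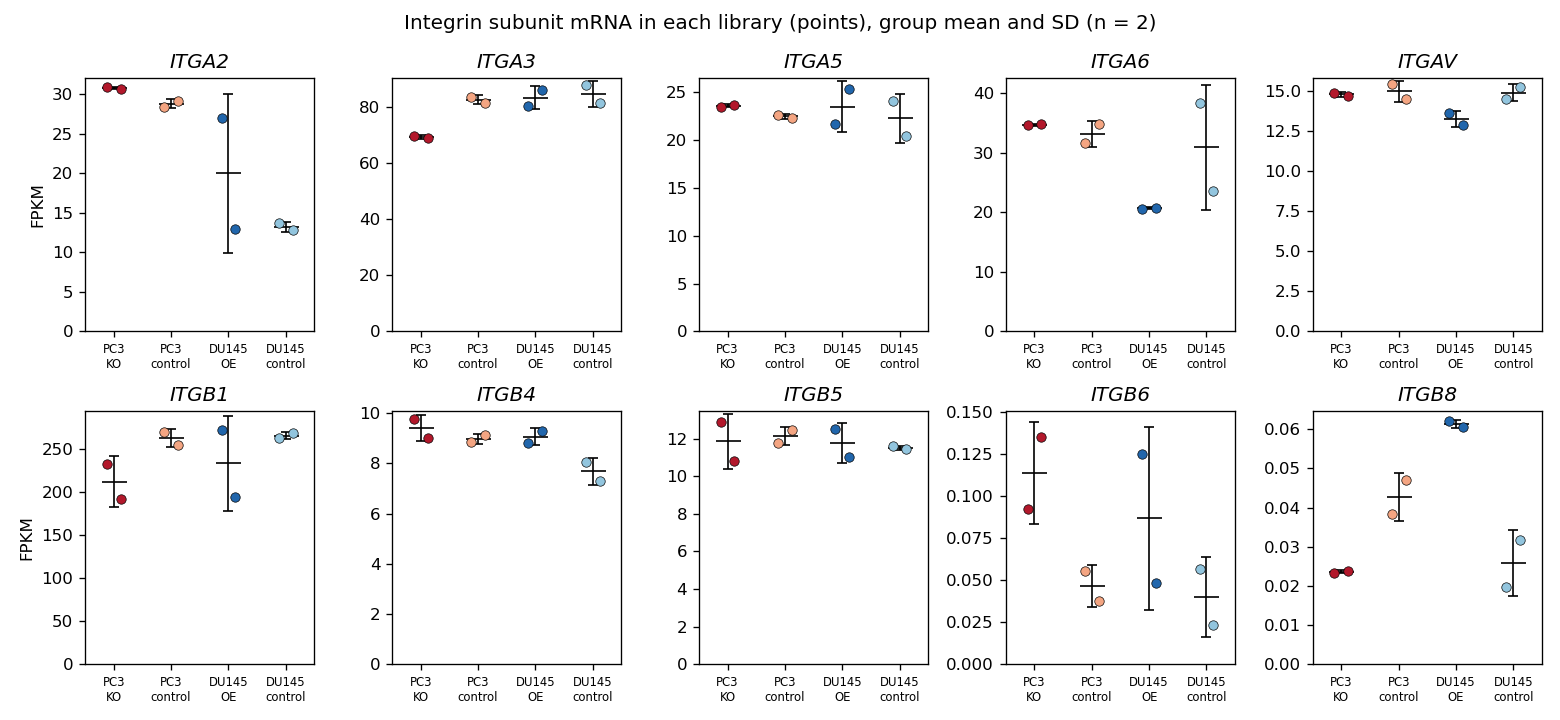
FPKM of each of the 10 integrin subunits (vertical axes from 0, a scale per panel) by group, with each library as a point, the group mean as a long bar and the SD of 2 libraries as whiskers. ITGB1 lies between 191.8 and 272.4 FPKM, ITGB6 and ITGB8 stay under 0.136 FPKM, and the points of ITGA2 in DU145 EphA2 OE lie at 27.1 and 12.9 FPKM.

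The promoters of the most and least abundant members, and of ITGA2, whose level varied most among the well-detected members, are shown as the 250 bases before the start site in RefSeq (GRCh38.p14). Such a window was given for 8 of the 10 members. Capitals mark the GC box GGGCGG or its reverse complement CCGCCC, searched on both strands with overlapping matches allowed. None of the matches printed here overlap. In order, the windows are chr10:32958231-32958480 (minus strand), chr5:52989102-52989351 (plus strand), chr2:160200273-160200522 (minus strand) and chr7:20330650-20330899 (plus strand), each printed 5′ to 3′.
ITGB1: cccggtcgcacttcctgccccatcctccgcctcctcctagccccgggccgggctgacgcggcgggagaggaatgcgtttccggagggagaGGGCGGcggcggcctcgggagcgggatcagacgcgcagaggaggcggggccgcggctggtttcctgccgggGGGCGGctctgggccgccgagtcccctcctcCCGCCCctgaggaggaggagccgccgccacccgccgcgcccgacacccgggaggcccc
ITGA2: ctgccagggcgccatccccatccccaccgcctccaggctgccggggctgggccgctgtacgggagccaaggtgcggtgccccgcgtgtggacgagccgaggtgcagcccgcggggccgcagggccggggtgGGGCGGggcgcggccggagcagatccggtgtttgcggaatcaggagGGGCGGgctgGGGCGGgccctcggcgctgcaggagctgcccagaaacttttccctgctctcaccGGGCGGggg
ITGB6: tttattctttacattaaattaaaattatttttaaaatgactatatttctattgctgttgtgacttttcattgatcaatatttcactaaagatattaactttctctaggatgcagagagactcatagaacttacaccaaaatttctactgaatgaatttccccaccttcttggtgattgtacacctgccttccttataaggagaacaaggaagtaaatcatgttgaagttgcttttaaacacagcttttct
ITGB8: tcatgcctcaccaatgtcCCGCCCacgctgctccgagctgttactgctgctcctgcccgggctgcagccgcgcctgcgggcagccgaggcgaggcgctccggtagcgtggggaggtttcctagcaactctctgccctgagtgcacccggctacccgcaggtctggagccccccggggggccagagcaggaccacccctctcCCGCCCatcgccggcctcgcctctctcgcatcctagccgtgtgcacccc
The window of ITGB1 held 32 CpG dinucleotides and 3 GC boxes, that of ITGA2 26 and 4, that of ITGB8 21 and 2, and that of ITGB6 0 of both. A GC box was found in 42.64% of 35116 windows of the same length, whose median CpG number was 11. ITGB6 and ITGB8, both close to undetected, thus differed in these letters.

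In cells given the EphA2 guide, no integrin subunit passed the test, and the measured differences were small for all well-detected members. Among these, ITGA3 and ITGB1 had the lowest values relative to the control. ITGA3 had 69.7 and 68.8 FPKM in PC3 EphA2 KO, against 83.6 and 81.3 FPKM in PC3 control. Its knockout libraries lay below both controls, with a log2 fold change of -0.23 ± 0.07 (SE; adjusted p = 0.664, unadjusted p = 0.0133 in edgeR). ITGB1, given above, also lay lower in both knockout libraries, with a log2 fold change of -0.29 ± 0.17 (adjusted p = 0.800), but the knockout libraries differed from each other by more than the nearest of them did from the control.

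ITGA2 (chr5:52989340-53094779, plus strand) had 30.9 and 30.7 FPKM in PC3 EphA2 KO, against 28.4 and 29.2 FPKM in PC3 control, without overlap and with a log2 fold change of 0.12 ± 0.30 (adjusted p = 0.987). With the controls exchanged its value was 1.18 (adjusted p = 0.525). ITGA5 (chr12:54395261-54419266, minus strand) had 23.5 and 23.7 FPKM in PC3 EphA2 KO and 22.7 and 22.3 FPKM in PC3 control. ITGA6 (chr2:172427354-172506459, plus strand) had 34.6 and 34.8 FPKM in PC3 EphA2 KO, against 31.7 and 34.8 FPKM in PC3 control, with one control at the knockout level and the other lower (log2 fold change 0.08 ± 0.20). ITGAV had 14.9 and 14.7 FPKM in PC3 EphA2 KO and 15.5 and 14.5 FPKM in PC3 control, which overlapped.

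Of the remaining beta subunits, ITGB4 (chr17:75721328-75757818, plus strand) had 9.77 and 9.02 FPKM in PC3 EphA2 KO and 8.83 and 9.12 FPKM in PC3 control, which overlapped on this scale. ITGB5 had 12.9 and 10.8 FPKM in PC3 EphA2 KO and 11.8 and 12.5 FPKM in PC3 control, with the control values inside the knockout range. ITGB6 had 38 and 57 counts in PC3 EphA2 KO, against 24 and 16 counts in PC3 control, and ITGB8 had 26 and 27 counts in PC3 EphA2 KO, against 41 and 50 counts in PC3 control. Neither pair overlapped, but the log2 fold changes of 1.22 ± 0.76 for ITGB6 and -0.80 ± 0.50 for ITGB8 did not pass the test (adjusted p = 0.813 for both).

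Over the members, 0 of 10 were called by edgeR (0.0264% of all genes tested) and 0 by DESeq2 (0.836% of all genes), with 1, ITGA3, at an unadjusted p under 0.05 (6.62% of all genes). In CPM, knockout and control libraries did not overlap in 8 members, where 43.0% of all genes did not overlap. Of these, 5 were higher (21.4% of all genes) and 3 lower (21.6%), and ITGA6 and ITGB4 among them did overlap in FPKM. The median log2 fold change of the members was 0.04, beside -0.0021 over all genes tested. For 8 of 10 members the 95% interval of the fold change stayed within 2-fold in either direction, and ITGB6 and ITGB8 were the exceptions. That of ITGB1 ran from -0.68 to 0.11 on the log2 scale and that of ITGA3 from -0.40 to -0.06. In bulk RNA, less of an mRNA per cell and fewer cells that hold it cannot be told apart.

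**Figure D2:**
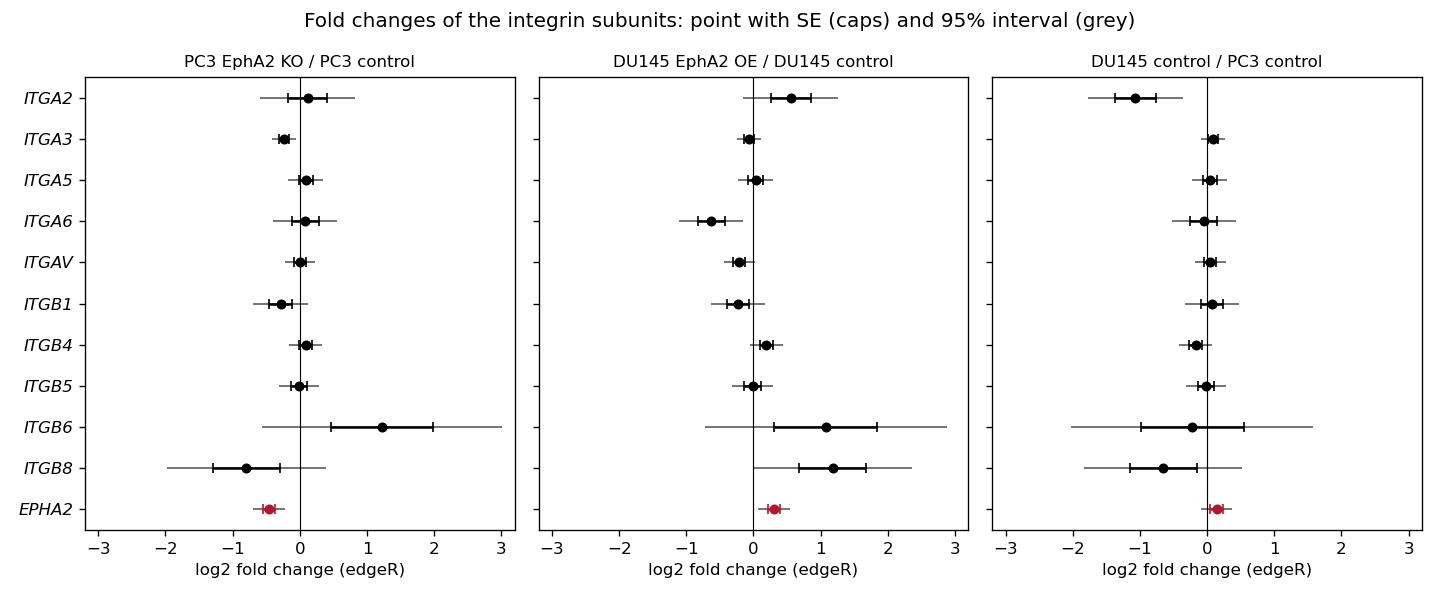
Log2 fold change (horizontal axis) of the 10 integrin subunits and of EPHA2 (red) in 3 comparisons, with the SE as capped bars and the 95% interval as grey lines, from edgeR over 8 libraries. ITGA2 lies at -1.07 between the controls and ITGA6 at -0.63 in DU145 EphA2 OE, and the intervals of ITGB6 are the widest in each panel.

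In cells given the EphA2 plasmid, again no member passed the test, and ITGA6, the alpha subunit of the hemidesmosomal laminin receptor, had the lowest value relative to its control. ITGA6 had 20.6 and 20.8 FPKM in DU145 EphA2 OE, against 38.4 and 23.5 FPKM in DU145 control. Both overexpressing libraries lay below both controls, but the controls differed from each other by 17839 against 11145 counts. The log2 fold change was -0.63 ± 0.20 (adjusted p = 0.464, unadjusted p = 0.0146 in edgeR; adjusted p = 0.120 in DESeq2). Without DU145 control replicate 1 it was -0.23, and without DU145 control replicate 2 it was -0.93. CD151, a tetraspanin that binds the laminin-binding integrins, had a like pattern, with 30.9 and 28.2 FPKM in DU145 EphA2 OE, against 55.0 and 32.1 FPKM in DU145 control, with the same control library high.

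ITGA2, the collagen-binding alpha subunit, differed between the overexpressing libraries themselves. It had 27.1 and 12.9 FPKM in DU145 EphA2 OE, against 13.7 and 12.8 FPKM in DU145 control. Replicate 1 was at the level of the PC3 libraries (28.4 to 30.9 FPKM) and replicate 2 at that of its control. The log2 fold change of 0.56 ± 0.30 (adjusted p = 0.622 in edgeR) therefore rested on replicate 1: without replicate 2 ITGA2 was called (log2 fold change 1.01, adjusted p = 0.00839) and without replicate 1 the value was -0.11 (adjusted p = 0.614). With the names of the controls exchanged it was -0.51 (adjusted p = 0.868).

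ITGAV had 13.6 and 12.9 FPKM in DU145 EphA2 OE, against 14.5 and 15.3 FPKM in DU145 control, lower without overlap (log2 fold change -0.21 ± 0.09, adjusted p = 0.558). ITGA3 had 80.3 and 86.1 FPKM in DU145 EphA2 OE and 87.8 and 81.3 FPKM in DU145 control. ITGA5, the fibronectin-binding subunit, had 21.7 and 25.4 FPKM in DU145 EphA2 OE and 24.1 and 20.5 FPKM in DU145 control. Both ITGA3 and ITGA5 overlapped between groups.

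Among the beta subunits, ITGB1 overlapped as well, since in FPKM DU145 EphA2 OE replicate 1 lay above both controls and replicate 2 was the second lowest of the 8 libraries. ITGB4 had 8.81 and 9.29 FPKM in DU145 EphA2 OE, against 8.06 and 7.30 FPKM in DU145 control, higher without overlap (log2 fold change 0.19 ± 0.10, adjusted p = 0.611). ITGB5 had 12.5 and 11.0 FPKM in DU145 EphA2 OE and 11.6 and 11.4 FPKM in DU145 control. ITGB8 had 65 and 63 counts in DU145 EphA2 OE, against 21 and 35 counts in DU145 control, a log2 fold change of 1.18 ± 0.50 without overlap (adjusted p = 0.547). ITGB6, with 50 and 20 counts in DU145 EphA2 OE and 23 and 10 counts in DU145 control, overlapped.

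Here 0 of 10 members were called by edgeR (0.0396% of all genes tested) and 0 by DESeq2 (1.36%), and 2, ITGA6 and ITGB8, had an unadjusted p under 0.05 (9.06%). In CPM the groups did not overlap in 4 members (37.3% of all genes), 2 higher (19.1%) and 2 lower (18.2%). The median log2 fold change was 0.0092 for the members and 0.0087 for all genes tested. The 95% interval stayed within 2-fold for 6 members and reached it for ITGA2, ITGA6, ITGB6 and ITGB8.

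The knockout and overexpression responses were compared in a contrast of knockout over control minus overexpression over control. No member was called by edgeR (0.0308% of all genes) or DESeq2 (1.8% of all genes). ITGA6 had the contrast 0.71 ± 0.28 (adjusted p = 0.469) and ITGB8 -1.98 ± 0.71 (adjusted p = 0.442), the 2 members with an unadjusted p under 0.05 (10.1% of all genes). For ITGB8 the knockout libraries lay below their controls and the overexpressing libraries above theirs, on 21 to 65 counts.

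Between the controls, ITGA2 had the largest difference of the members. ITGA2 had 13.7 and 12.8 FPKM in DU145 control, against 28.4 and 29.2 FPKM in PC3 control, a log2 fold change of -1.07 ± 0.30 with the replicates of each group close together. It was not called by edgeR (adjusted p = 0.395, where 13 genes, 0.0572% of all tested, were called between the lines) but was by DESeq2 (adjusted p = 0.0197, 1.57% of all genes) and by edgeR on the libraries of the controls alone (adjusted p = 0.0430). The other 9 members were not called by either tool, and among the well-detected ones their log2 fold changes ran from -0.17 for ITGB4 to 0.09 for ITGA3. In CPM the libraries did not overlap in 5 members (43.9% of all genes), 2 higher (21.5%) and 3 lower (22.4%) in DU145 control. At an unadjusted p under 0.05 there was 1 member, ITGA2 (9.01% of all genes). The knockout, the overexpression and this comparison share control libraries, so their values are not independent.

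The balance of subunits was computed from FPKM in each library, since alpha and beta subunits reach the cell surface as pairs. ITGB1 made up 90.5% to 93.5% of the summed beta subunit FPKM in all 8 libraries. ITGB1 over the sum of the 5 alpha subunits was 1.34 and 1.11 in PC3 EphA2 KO, against 1.49 and 1.40 in PC3 control, lower in both knockout libraries. In DU145 EphA2 OE this ratio was 1.67 and 1.23, against 1.47 and 1.75 in DU145 control, which overlapped. With 2 libraries against 2 an exact permutation test of such a ratio cannot reach 0.05, and none was made.

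Within the alpha sum, ITGA3 held the largest share, from 39.8% to 54.5%. ITGA2 held 17.8% in each PC3 EphA2 KO library, against 15.6% and 16.0% in PC3 control. In DU145 EphA2 OE its share was 16.6% and 8.17%, against 7.68% and 8.34% in DU145 control, so that replicate 1 again stood with the PC3 libraries. ITGA6 over ITGB4, the hemidesmosomal pair, was 3.54 and 3.86 in PC3 EphA2 KO and 3.59 and 3.82 in PC3 control. It was 2.34 and 2.24 in DU145 EphA2 OE, against 4.76 and 3.22 in DU145 control, lower without overlap, and ITGA6 mRNA exceeded that of ITGB4 in every library.

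**Figure D3:**
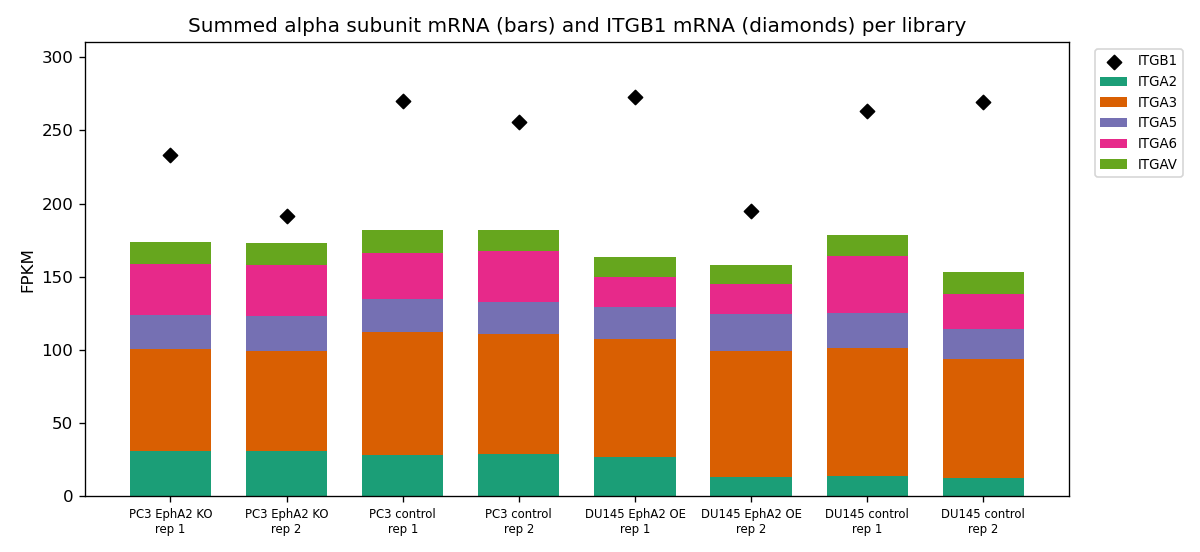
Summed FPKM of the 5 alpha subunits (stacked bars from 0) and FPKM of ITGB1 (diamonds) in each of the 8 libraries, in the order of the groups. ITGB1 exceeds the alpha sum in each library, by the least in PC3 EphA2 KO replicate 2 (ratio 1.11), and the ITGA2 band is narrow in DU145 EphA2 OE replicate 2 and both DU145 control libraries.

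Genes whose pattern over the 8 libraries was nearest were sought for the 3 members that varied most, by the root mean square difference of centred log2 CPM over 10376 genes with a mean of at least 10 CPM. For ITGA2 these were TDG (0.131), CAB39 (0.157) and RAB4A (0.199). TDG, a DNA glycosylase, had 7.31 and 7.55 FPKM in PC3 EphA2 KO, 7.79 and 7.41 FPKM in PC3 control, 7.82 and 3.07 FPKM in DU145 EphA2 OE and 3.24 and 3.87 FPKM in DU145 control. CAB39, a partner of the kinase LKB1, had 20.3 and 8.32 FPKM in DU145 EphA2 OE, against 8.34 and 7.23 FPKM in DU145 control, and 19.2 to 22.5 FPKM in the PC3 libraries. RAB4A, a GTPase of endosomal recycling, had 7.32 and 4.37 FPKM in DU145 EphA2 OE, against 3.93 and 4.35 FPKM in DU145 control, and 6.87 to 8.26 FPKM in the PC3 libraries. All 3 separated the DU145 EphA2 OE replicates as ITGA2 did, which follows from their choice by likeness over the same 8 libraries.

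For ITGB8 the nearest genes were F3, the initiator of coagulation (0.262), and the phosphatases DUSP4 (0.265) and DUSP5 (0.274). Each was highest in the DU145 EphA2 OE libraries, as ITGB8 was, which the choice by likeness favours. DUSP5 had 39.6 and 58.6 FPKM in DU145 EphA2 OE, against 23.7 and 24.6 FPKM in DU145 control, and 24.8 and 24.2 FPKM in PC3 EphA2 KO, against 38.4 and 36.3 FPKM in PC3 control. For ITGB6 they were EME2 (0.432), RAB4B (0.447) and TACC1 (0.470), at distances that show a looser match. ITGB6 and ITGB8 themselves rest on few counts, so counting error is part of these patterns.

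**Figure D4:**
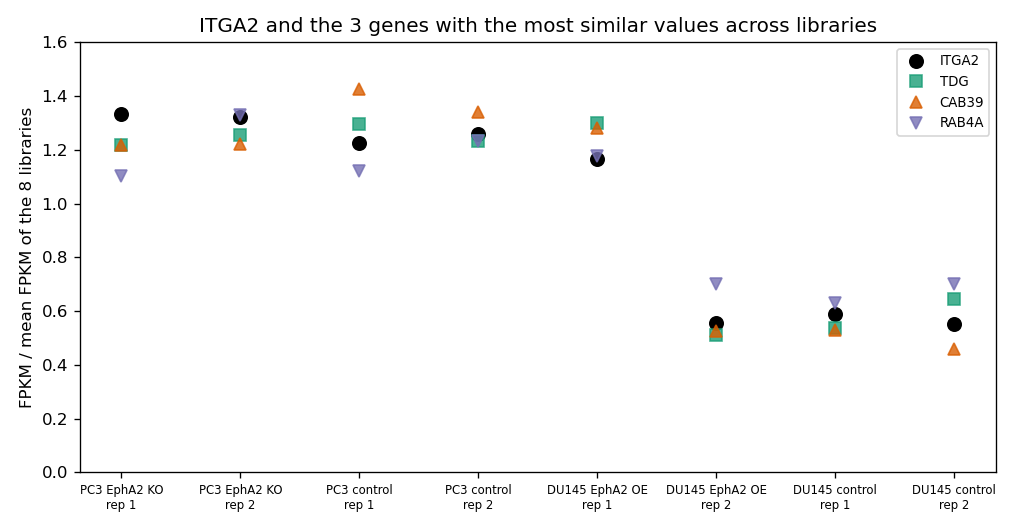
FPKM of ITGA2, TDG, CAB39 and RAB4A divided by the mean of each gene over the 8 libraries (vertical axis from 0), by library. The 4 PC3 libraries and DU145 EphA2 OE replicate 1 lie above 1, and DU145 EphA2 OE replicate 2 and the DU145 control libraries lie below 1.

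The genes around these receptors gave few calls. Over all genes tested, edgeR called 0.0264% in the knockout and 0.0396% in the overexpression, and DESeq2 called 0.836% and 1.36%. At an unadjusted p under 0.05 in edgeR the shares of all genes were 6.62% and 9.06%. Of the other 16 integrin subunits listed, 15 were in the table and 14 were tested, and 0 were called by edgeR or DESeq2 in either comparison (2 at an unadjusted p under 0.05 in each). Their median log2 fold change was 0.09 in the knockout and -0.16 in the overexpression. ITGB3, which pairs with ITGAV and with platelet ITGA2B, had 3.61 and 3.87 FPKM in PC3 EphA2 KO, against 2.55 and 2.90 FPKM in PC3 control (log2 fold change 0.48, adjusted p = 0.732). It had 2.36 and 3.48 FPKM in DU145 EphA2 OE, against 3.84 and 3.87 FPKM in DU145 control (-0.45, adjusted p = 0.532). Neither comparison overlapped, and the contrast of both was 0.93 ± 0.26 (adjusted p = 0.346). The leukocyte subunit ITGB7 stayed under 0.162 FPKM in all libraries. ITGB7 had 0.0543 and 0.0776 FPKM in DU145 EphA2 OE, against 0.0036 and 0.0085 FPKM in DU145 control (log2 fold change 2.53 ± 0.94, adjusted p = 0.510 in edgeR). ITGA4 had 0 and 0 counts in PC3 EphA2 KO, against 23 and 4 counts in PC3 control (adjusted p = 0.681 in edgeR). At a floor of 3 counts over the group it was 9.23-fold lower than the pooled controls. That value rested mostly on PC3 control replicate 1, the library with 23 counts. With ITGA4 at that value the list's median was again 0.09.

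Among 25 tested matrix ligands 0 were called in either comparison by edgeR, and DESeq2 called 2 in the overexpression (7 in the knockout and 4 in the overexpression at an unadjusted p under 0.05, against 6.62% and 9.06% of all genes). The list's median log2 fold change was 0.03 in the knockout and 0.13 in the overexpression. TGFB2, a TGF-beta ligand on the same list, had 0.565 and 0.416 FPKM in PC3 EphA2 KO, against 0.972 and 0.842 FPKM in PC3 control (log2 fold change -0.86, adjusted p = 0.585). In DU145 EphA2 OE the matrix protein TNC had 31.5 and 38.5 FPKM, against 24.8 and 23.6 FPKM in DU145 control (log2 fold change 0.48, adjusted p = 0.328 in edgeR and 0.0129 in DESeq2). CCN2, a matricellular integrin ligand, had 8.83 and 12.5 FPKM in DU145 EphA2 OE, against 5.69 and 5.99 FPKM in DU145 control (0.82, adjusted p = 0.375 and 0.0138).

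Of 8 hemidesmosome and tetraspanin partners, 0 were called by edgeR or DESeq2 in either comparison. At an unadjusted p under 0.05 there were 2 in the knockout and 2 in the overexpression (6.62% and 9.06% of all genes). The medians were 0.10 in the knockout and -0.05 in the overexpression. DST, a plakin that anchors keratin at the hemidesmosome, had 8.29 and 8.35 FPKM in PC3 EphA2 KO, against 10.5 and 10.4 FPKM in PC3 control (log2 fold change -0.30, adjusted p = 0.719). It had 8.02 and 8.32 FPKM in DU145 EphA2 OE, against 11.1 and 8.73 FPKM in DU145 control (-0.32, adjusted p = 0.491). COL17A1, the transmembrane collagen of the hemidesmosome, had 4.80 and 4.26 FPKM in PC3 EphA2 KO, against 4.01 and 3.25 FPKM in PC3 control (0.34, adjusted p = 0.732). Of CD151 the adjusted p in the overexpression was 0.510.

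The activators and inhibitors of integrins (9 and 5 tested) held 0 genes called by edgeR or DESeq2 in either comparison. At an unadjusted p under 0.05 there was 1, FLNA in the overexpression (9.06% of all genes), and 0 in the knockout (6.62%). Activators had medians of -0.00016 in the knockout and -0.07 in the overexpression, and inhibitors 0.0091 and 0.07. The kindlin FERMT1 had 14.5 and 15.3 FPKM in PC3 EphA2 KO, against 5.81 and 13.8 FPKM in PC3 control, with PC3 control replicate 1 as the low library (log2 fold change 0.62 ± 0.35, adjusted p = 0.791). Its value was 0.13 without that library and 1.39 without PC3 control replicate 2. FERMT2, another kindlin, had 10.4 and 14.0 FPKM in PC3 EphA2 KO, against 15.4 and 15.5 FPKM in PC3 control (-0.32, adjusted p = 0.756). Filamin FLNA, which competes with talin at beta tails, had 139.4 and 143.1 FPKM in DU145 EphA2 OE, against 163.7 and 154.8 FPKM in DU145 control (-0.22, adjusted p = 0.452). SHARPIN in the knockout and DOK1 in the overexpression had adjusted p-values of 0.937 and 0.669, and APBB1IP and FERMT1 in the overexpression 0.647 and 0.730.

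Among 38 focal adhesion adaptors and kinases, 1 was called by edgeR in the overexpression and 0 in the knockout (0.0396% and 0.0264% of all genes). DESeq2 called 2 and 1 (1.36% and 0.836%), and 6 and 4 had an unadjusted p under 0.05 (9.06% and 6.62%). The medians were -0.07 in the overexpression and 0.05 in the knockout. LASP1, an actin-binding adaptor of focal adhesions, had 66.1 and 60.5 FPKM in DU145 EphA2 OE, against 17.8 and 15.7 FPKM in DU145 control, and rose by a log2 fold change of 1.88 ± 0.10 (adjusted p = 0.00128). The DU145 control libraries were the low ones here, and with the controls exchanged the value was 0.07 (adjusted p = 0.975). TNS4, a tensin, had 9.06 and 9.76 FPKM in PC3 EphA2 KO, against 5.44 and 5.53 FPKM in PC3 control (log2 fold change 0.80, adjusted p = 0.501 in edgeR and 0.0247 in DESeq2). PTK2B, a relative of focal adhesion kinase, had 2.47 and 3.65 FPKM in DU145 EphA2 OE, against 1.80 and 1.57 FPKM in DU145 control (0.81, adjusted p = 0.375 and 0.0157). PDLIM7 in the knockout had a log2 fold change of 0.34 (adjusted p = 0.575).

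Of 15 trafficking genes, 0 were called by edgeR or DESeq2 in either comparison. At an unadjusted p under 0.05 there was 1 in the knockout and 1 in the overexpression (6.62% and 9.06% of all genes). The medians were -0.0038 in the knockout and -0.06 in the overexpression. ARF6, a GTPase of integrin recycling, had 115.3 and 116.7 FPKM in PC3 EphA2 KO, against 103.7 and 103.1 FPKM in PC3 control (log2 fold change 0.19, adjusted p = 0.754). It had 107.9 and 101.1 FPKM in DU145 EphA2 OE, against 119.4 and 116.5 FPKM in DU145 control (-0.22, adjusted p = 0.510). RAB5A, of early endosomes, had 7.41 and 13.7 FPKM in DU145 EphA2 OE, against 7.11 and 5.92 FPKM in DU145 control (log2 fold change 0.65, adjusted p = 0.607). The value was 0.17 without DU145 EphA2 OE replicate 2 and 1.01 without replicate 1 of that group. ACAP1, an ARF6 regulator, had a log2 fold change of 0.50 in the knockout (adjusted p = 0.795).

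**Figure D5:**
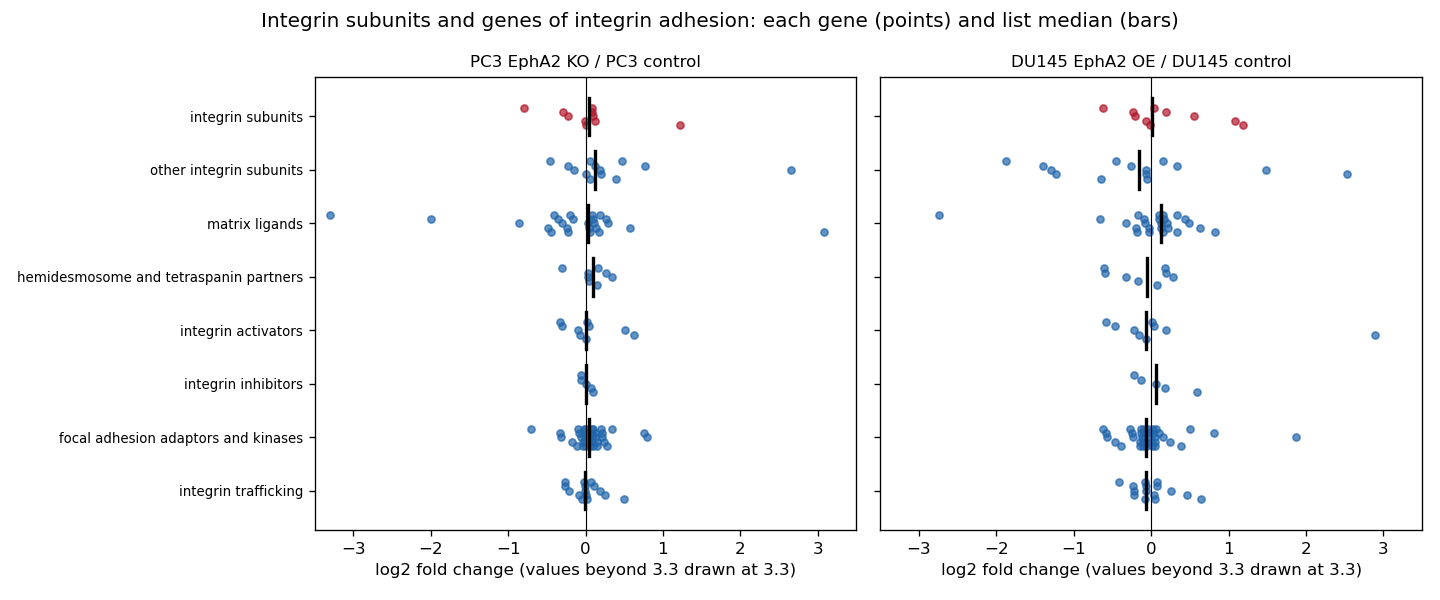
Log2 fold change of each tested gene (points) and the median (black bars) for the integrin subunits (red) and the 7 lists of genes of integrin adhesion (blue), by comparison. ITGA4, at 0 in PC3 EphA2 KO, is left out of the left panel and of the median bar there, values beyond the axis limit are drawn at it, and the median of the integrin subunits lies at 0.04 on the left and 0.0092 on the right.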

How the data were processed

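RNA was measured by poly(A) RNA-seq in 8 libraries. The authors deposited a table with a raw count and an FPKM value for every gene and library; 0 of its 16 value columns were left unmapped. Per the submitters' processing notes edgeR, DESeq2, StringTie 2.1.6, HISAT2 2.2.1 and cutadapt 1.9 were used with GRCh38. Which settings and strand rule the counting had was not given in the sources used here. Reads of overlapping genes may therefore be shared: ITGB1 and ITGB4 overlap opposite-strand genes with up to 858 and 1229 counts, ITGA2, ITGA5 and ITGA6 ones with up to 93, 5 and 72 counts, and ITGB5 and ITGB6 same-strand genes with up to 12 and 5 counts.

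The quasi-likelihood test of edgeR 4.0.16, under R 4.3.3, was run on counts with 4 group means over 8 libraries (4 residual degrees of freedom), TMM, filterByExpr (minimum count 10, minimum total 15) and Benjamini-Hochberg adjustment over 22727 genes, called below 0.05. The value after ± is an SE for a fold change. DESeq2 1.42.0 and limma 3.58.1 on log2(FPKM + 1) were alternatives, as were RLE normalization, no filter, a mean FPKM of at least 1, the libraries of a comparison alone, a replicate block, leaving out each library and exchanging the controls. Whether replicates were grown separately is not in the labels, and the p-values reflect variation among libraries, perhaps only technical; replicates differed by more than counting error (chi-square per degree of freedom 39.3 to 85.3). A floor of 3 counts was used for genes at 0.

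The members and lists were chosen with earlier results of these data known. The genes named were all members, EPHA2, in each list and comparison the called genes and the 2 with the smallest p, and for the 3 most variable members the 3 nearest genes. The markers KLK3, KLK2, FOLH1, DCN, LUM and CD3E and the subunit ITGA8 were not analysed here, and the values of some genes that the rule names are not reported here. Promoter sequences are from RefSeq. The luminal marker TMPRSS2 was at 0 in 7 libraries.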

Additional observations from a re-analysis of the deposited data

Results flagged for a closer look

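LASP1, a focal adhesion adaptor, had a response that differed between the experiments: the contrast of knockout over control minus overexpression over control was -1.75 on the log2 scale (edgeR adjusted p = 0.0163). LASP1 had 66.1 and 60.5 FPKM in DU145 EphA2 OE, against 17.8 and 15.7 FPKM in DU145 control. It had 65.0 and 65.3 FPKM in PC3 EphA2 KO, against 58.9 and 62.7 FPKM in PC3 control. With the controls exchanged the contrast was 1.85 (adjusted p = 0.00878), the sign turned. It was no longer called with the replicate block (-1.76, adjusted p = 0.0609) or without PC3 EphA2 KO replicate 2 (-1.76, adjusted p = 0.0607).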

How the results depend on the processing

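Numbers of all genes called depended on the method. DESeq2 called 190 genes in the knockout, 309 in the overexpression, 410 in the contrast of both and 357 between controls. A mean FPKM of at least 1 gave 12 and 23 in the knockout and the contrast, no filter 4 in the overexpression, the libraries of the comparison alone 0 in the overexpression and 20 between controls, limma 23 between controls, and exchanged controls 13 and 16 in the knockout and the contrast. Same-numbered libraries did not deviate together (correlations -0.017 and -0.0246 over 8261 genes); a replicate block left 0, 3, 3 and 3 genes called in the knockout, the overexpression, the contrast and between controls. Leaving out a library gave 6 to 21, 7 to 376, 11 to 323 and 4 to 26 genes; where that left a group with 1 library, its spread was taken from the other groups. Genes at an unadjusted p under 0.05 then ranged from 1582 to 3633, 1692 to 3767 and 1354 to 1694 in the overexpression, the contrast and between controls. The number of integrin subunits called was 0 to 1 in the overexpression and the contrast, the 1 being ITGA2 without DU145 EphA2 OE replicate 2, and 1, again ITGA2, between controls with DESeq2 and with the control libraries alone.

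Changes of sign came with values near 0, with exchanged controls or with a left-out library. In the knockout, ITGAV was -0.00090 with the FPKM filter, -0.016 with limma and -0.044 with exchanged controls, and exchanged controls gave 0.0070 for ITGB5, -0.078 for ITGB3, -0.14 for COL17A1, -0.32 for FERMT1 and -0.058 for ARF6. In the overexpression, ITGB5 was 0.00097 with the FPKM filter and 0.025 with limma, and exchanged controls gave -0.51 for ITGA2, 0.022 for ITGA3, -0.52 for ITGB7, 0.11 for ITGB3, 0.47 for FERMT1, 0.026 for ARF6 and -0.32 for RAB5A. In the contrast, ITGB5 was -0.0019 without a filter, -0.017 with the FPKM filter, -0.00076 with the replicate block and -0.059 with limma, ITGA5 was -0.0073 with limma, and exchanged controls gave 1.69 for ITGA2, -0.021 for ITGA5, 0.23 for ITGB4 and 1.85 for LASP1. Between controls limma gave -0.018 for ITGA5 and -0.0075 for ITGAV. Leaving out a library moved the knockout value of ITGAV between -0.035 and 0.049 and of ITGB5 between -0.14 and 0.11. It moved the overexpression value of ITGA2 between -0.11 and 1.01, of ITGA5 between -0.071 and 0.15, of ITGB1 between -0.52 and 0.016 and of ITGB5 between -0.13 and 0.10. It moved the contrast of ITGB5 between -0.13 and 0.13, of ITGB1 between -0.30 and 0.24, of ITGB6 between -0.58 and 0.99, of ITGA2 between -0.89 and 0.23 and of ITGA5 between -0.058 and 0.16. Between controls it moved ITGB6 between -0.95 and 0.26, ITGA6 between -0.44 and 0.26, ITGB5 between -0.062 and 0.029 and ITGA5 between -0.075 and 0.15. The cause was not tested. In the overexpression the log2 fold change of LASP1 stayed at 1.88 with the libraries of that comparison alone (adjusted p = 0.0577), a setting in which 0 genes were called.

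ITGB6 and ITGB8 have no value under the FPKM filter, which removed them. Of single-gene values, 765 kept direction and call, 56 changed sign, 12 became called and 4 lost the call.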
